A study of Mus musculus with 12 samples.

Results

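The expression of 10 genes of fat cell formation and lipid storage, Pparg, Cebpa, Cebpb, Cebpd, Fabp4, Lpl, Plin2, Dgat1, Dgat2 and Cd36, was examined in mouse embryonic fibroblast (MEF) cells with mutant IDH2 or added 2-hydroxyglutarate (2-HG). Each was found by its symbol, once in each of the 2 tables of the series, which list 43280 and 23930 entries. The tables come from 2 experiments, with 3 libraries in each of 4 groups. In the first, 2MUT cells, which stably express human IDH2 with the R172S mutation and a FLAG tag, were set against Control cells carrying the mock vector, both without treatment. In the second, 2-HG(+) cells had been kept for 24 h in 300 μM 2-HG, and 2-HG(-) cells are labelled as treated with DMSO for the same time, while the study's methods describe cells without 2-HG. All 4 groups derive from C57BL/6 MEF cells of embryonic day 13.5 that became immortal during passaging. The mutant enzyme was delivered by a retroviral vector under puromycin selection, beside the cells' own Idh2, and 2-HG was given as a membrane-permeant octyl ester. No medium that drives adipogenesis was part of the protocols.

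Mutant IDH2 turns α-ketoglutarate into 2-HG, a metabolite that competes with α-ketoglutarate in enzymes that demethylate histones and DNA. Fibroblasts can be driven to become fat cells by a cascade of transcription factors. Cebpb and Cebpd encode the early C/EBP factors of this cascade, and Pparg and Cebpa encode the later factors that keep each other active and switch on the genes of the fat cell. Downstream of them, lipoprotein lipase (Lpl) frees fatty acids from circulating triglyceride, the scavenger receptor CD36 takes up fatty acids, FABP4 binds them within the cell, DGAT1 and DGAT2 add the last fatty acid to make triglyceride, and perilipin 2 (Plin2) coats the droplets in which it is kept. In fibroblasts Plin2 is the common droplet coat, whereas Plin1 takes that place in mature fat cells.

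Pparg is transcribed from separate starts, and a library of 1 amplified target per gene gives a single value for the gene, so the starts were not told apart here. The sequences before 3 of its starts are shown because their letters differ, and that of Plin2 as the droplet coat whose change differed between the experiments. They are the 250 bases that precede each start in RefSeq on GRCm38.p6, at chr6:115360894-115361143, chr6:115362099-115362348 and chr6:115421816-115422065 on the plus strand for Pparg and chr4:86670060-86670309 on the minus strand for Plin2. Capitals mark every match, on either strand, to the C/EBP letters TTGCNNAA, the NF-Y letters CCAAT, the Sp1 letters GGGCGG and the TATA box letters TATAAA.
Pparg start 1: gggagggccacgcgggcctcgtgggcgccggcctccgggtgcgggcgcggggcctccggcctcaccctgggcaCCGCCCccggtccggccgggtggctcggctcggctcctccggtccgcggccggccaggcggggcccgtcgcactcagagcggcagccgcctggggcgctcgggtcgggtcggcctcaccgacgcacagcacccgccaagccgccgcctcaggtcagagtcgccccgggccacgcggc
Pparg start 2: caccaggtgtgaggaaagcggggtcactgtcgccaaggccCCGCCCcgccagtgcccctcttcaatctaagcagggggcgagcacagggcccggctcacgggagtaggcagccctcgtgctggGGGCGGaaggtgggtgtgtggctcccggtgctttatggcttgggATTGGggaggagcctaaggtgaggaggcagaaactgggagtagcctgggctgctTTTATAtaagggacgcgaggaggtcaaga
Pparg start 3: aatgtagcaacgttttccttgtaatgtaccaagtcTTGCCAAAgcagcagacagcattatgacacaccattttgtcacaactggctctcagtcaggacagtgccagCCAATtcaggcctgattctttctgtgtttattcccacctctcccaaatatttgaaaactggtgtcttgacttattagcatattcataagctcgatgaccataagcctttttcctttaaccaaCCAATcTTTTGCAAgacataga
Plin2: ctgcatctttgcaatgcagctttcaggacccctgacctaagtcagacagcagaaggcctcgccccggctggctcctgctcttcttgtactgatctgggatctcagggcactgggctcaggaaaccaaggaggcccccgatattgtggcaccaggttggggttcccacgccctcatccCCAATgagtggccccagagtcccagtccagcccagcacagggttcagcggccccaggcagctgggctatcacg

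The first Pparg window is 82.4% G and C and holds 1 Sp1 match, and the second is 63.6% G and C with 2 Sp1 matches, 1 CCAAT match and a TATA box match between bases -29 and -24. The third is 40.8% G and C and holds 2 C/EBP matches, at bases -215 to -208 and -16 to -9, and 2 CCAAT matches, none of which overlap each other. The Plin2 window holds 1 CCAAT match. Of 32536 distinct mouse promoter windows of this length, 9.57% hold the C/EBP letters, 33.8% CCAAT, 33.0% GGGCGG and 12.3% TATAAA. The other motifs searched, the PPAR-RXR direct repeat, which is AGGTCA repeated after 1 base of any kind (0.0338% of windows), and the cAMP response element TGACGTCA (1.56%), were not matched in these windows. Windows of Cebpa, Cebpb and Cd36 were also scanned, and those of Fabp4, Lpl, Dgat1, Dgat2 and Cebpd were not. A match describes letters only, and no binding was measured.

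In GENCODE M21 on GRCm38, all 10 are protein-coding genes. Pparg lies on chromosome 6 from 115360951 to 115490399, Plin2 on chromosome 4 from 86648386 to 86670060, Lpl on chromosome 8 from 68880491 to 68907448, Fabp4 on chromosome 3 from 10204088 to 10208576 and Dgat2 on chromosome 7 from 99153658 to 99182719. Cebpa, Cebpb and Cebpd each have a longest transcript of 1 exon. The positions of the amplified targets within the genes were not used here, so values are compared between libraries for the same gene and never between genes.

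Values are RPM, the reads on a gene scaled to a library total of 1000000 reads on genes. The Control and 2MUT libraries held 6472439 to 7313602 reads and the 2-HG(-) and 2-HG(+) libraries 14959318 to 18363768, so that 3 reads were worth 0.41 to 0.464 RPM in the first experiment and 0.163 to 0.201 RPM in the second. The tables were normalized separately over different entries, and levels between them are set side by side only. A value of 0 says only that the amplified target of a gene gave no reads, not that the gene was silent. Hadhb, a subunit of the mitochondrial trifunctional protein named here after its values were seen, was listed at 0 in all 6 libraries of the first experiment, while Hadha, its partner subunit, was at 82 to 103 RPM. Fibroblast markers checked the label: the 8 listed markers summed to 14883 to 16878 RPM in Control, 13354 to 13795 RPM in 2MUT, 21180 to 22837 RPM in 2-HG(-) and 15067 to 16081 RPM in 2-HG(+). This sum was lower in all 3 libraries of 2MUT and of 2-HG(+) than in any of their controls, with 6 of 8 markers lower and 1 higher in 2MUT and 4 of 8 lower and 1 higher in 2-HG(+). Macrophages also express Lpl, Fabp4, Cd36 and Plin2. Ptprc, the pan-leukocyte marker, had 0 reads in all but 1 library (0.142 RPM in a Control library). The macrophage list summed to 7.16 to 14.6 RPM, most of it from Cd68, which is also expressed outside macrophages. This sum was 12.2 to 14.6 RPM in 2-HG(-) and 8.93 to 11.1 RPM in 2-HG(+), without overlap. Cd68 was lower with 2-HG (log2 fold change -0.51, limma adjusted p = 0.0214) and was not called in 2MUT (-0.39, adjusted p = 0.191). Csf1r, the receptor for a macrophage growth factor, had 4 reads in Control (0 to 0.57 RPM) and 26 in 2MUT (0.688 to 1.7 RPM), without overlap, and overlapped between 2-HG(-) (1.02 to 1.58 RPM) and 2-HG(+) (0.902 to 1.44 RPM). Cdh5, the endothelial cadherin, likewise had 0 reads in Control and 15 in 2MUT (0.55 to 0.927 RPM). Endothelial, muscle and epithelial lists summed to at most 2.94, 3.46 and 0.6 RPM. In these bulk libraries, fewer cells of a type and less RNA per cell cannot be told apart. What part the fibroblast markers, Cd68, Csf1r and Cdh5 had in the results was not tested.

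Expression of mutant IDH2 was first compared with the mock vector. No library came from cells with added wild-type IDH2, so an effect of the mutation and one of added IDH2 cannot be told apart. Cebpb, Lpl and Dgat2 were higher in 2MUT than in Control, by 1.4, 1.74 and 1.84 times in mean RPM, and none of the tested members was called lower. Pparg, Dgat1, Plin2 and Fabp4 did not pass the threshold. Cebpa, Cebpd and Cd36 did not reach the level set for the test. The threshold was a Benjamini-Hochberg adjusted p under 0.05 over all genes in limma's moderated test, run where a gene averaged 1 RPM or more. With it, 3 of the 7 tested members were called, all higher, beside 33.8% of the 11065 genes tested (16.5% higher and 17.3% lower). The count of members is near that share, so nothing particular to them is read from it. The median log2 fold change was 0.16 over the 7 and 0.008 over all genes tested.

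Among the regulators, Cebpb stood at 435, 392 and 421 RPM in the Control libraries and at 568, 653 and 523 RPM in the 2MUT libraries. All 3 2MUT libraries lay above all 3 Control libraries. The means were 416 ± 21.9 and 581 ± 66.1 RPM (SD, n = 3 each). On the log2 scale this was a fold change of 0.48 (SE 0.10, limma adjusted p = 0.00385). Pparg was measured at 2.52, 0.997 and 3.56 RPM in Control and at 2.01, 3.37 and 2.34 RPM in 2MUT, from 7 to 26 reads a library. The groups overlapped, with the lowest and the highest of the 6 values both in Control. Its log2 fold change was 0.15 with a 95% interval of -0.54 to 0.84 (adjusted p = 0.741).

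Cebpd had 8 reads over the 3 Control libraries and 7 over the 2MUT libraries, or 0.285 to 0.444 and 0.155 to 0.586 RPM. Cebpa had 2 and 4 reads in these groups. Neither reached the level set for the test. In a fit without that limit their log2 fold changes were -0.05 (SE 0.15, adjusted p = 0.822) for Cebpd and 0.13 (SE 0.13, adjusted p = 0.554) for Cebpa. That fit used log2(RPM + 1), which makes any change of genes this low small. These values therefore do not show that either gene was unchanged.

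Among the genes that supply fatty acids, Lpl was at 34, 44.9 and 37.3 RPM in Control and at 64, 68.5 and 70.2 RPM in 2MUT. The groups were apart, and the mean rose from 38.7 ± 5.56 to 67.6 ± 3.22 RPM (SD, n = 3). The fold change was 0.79 on the log2 scale (SE 0.13, adjusted p = 0.000875). Fabp4 was at 57.1, 60.7 and 54.8 RPM in Control and at 42.5, 47 and 53.4 RPM in 2MUT. Every 2MUT library was below every Control library for Fabp4, yet the log2 fold change of -0.27 (95% interval -0.54 to 0) did not pass (adjusted p = 0.112). Cd36 had 0 reads in Control, where 3 reads over the group would be 0.142 RPM, and 2 reads in 2MUT, both in 1 library.

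Among the genes of triglyceride synthesis and storage, Dgat2 was at 14.1, 13.1 and 12.7 RPM in Control and at 22.1, 25.2 and 26 RPM in 2MUT. No 2MUT library came near the Control range, and the log2 fold change was 0.83 (SE 0.15, adjusted p = 0.00145). Dgat1, the other enzyme of this step, was at 34.8, 44.9 and 42 RPM in Control and at 45, 42.6 and 48.2 RPM in 2MUT. Its groups overlapped, and its log2 fold change was 0.16 (95% interval -0.13 to 0.45, adjusted p = 0.378). Plin2 was at 445, 434 and 474 RPM in Control and at 420, 421 and 432 RPM in 2MUT. The 2MUT libraries were all lower, by 1.06 times in the mean, with a log2 fold change of -0.09 (95% interval -0.27 to 0.1, adjusted p = 0.444). Groups did not overlap for 5 of the 7 tested members, namely Cebpb, Lpl, Dgat2, Fabp4 and Plin2, and for 47.5% of all genes tested.

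**Figure D1:**
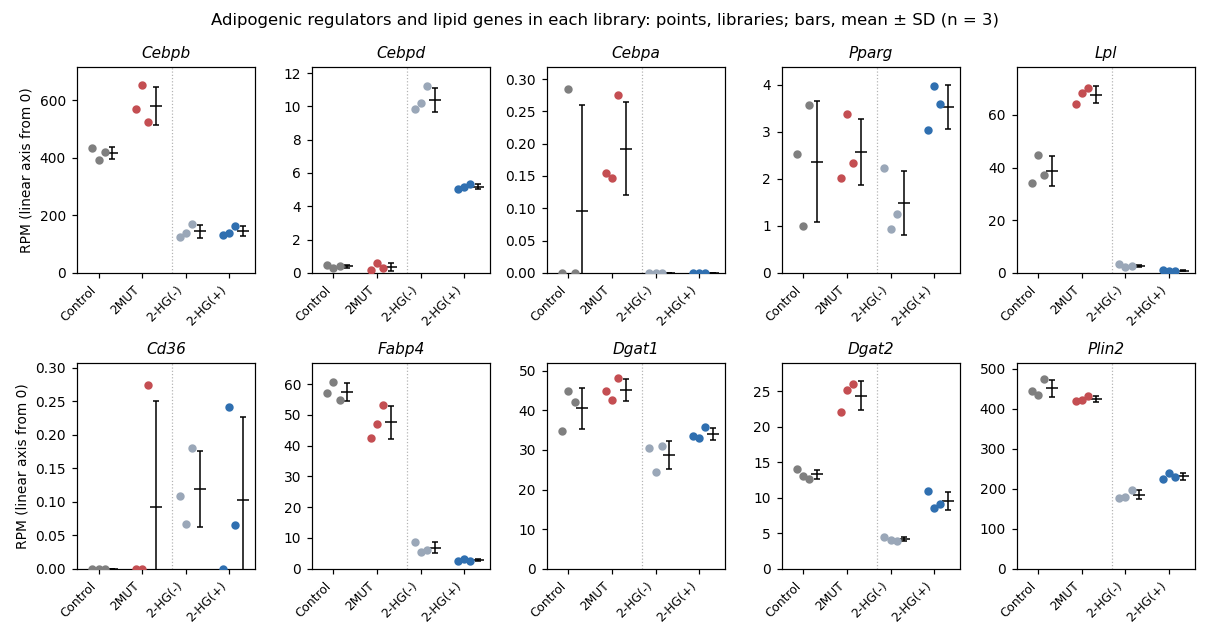
RPM of the 10 genes in each library, on linear axes from 0 with a scale of its own for each gene; points are libraries, bars the group mean ± SD (n = 3, cut at 0), and the dotted line separates the 2 experiments, whose tables were normalized separately. Dgat2 is higher in the treated or mutant group on both sides of the line, from 13.3 to 24.4 RPM and from 4.15 to 9.6 RPM in the means, while Lpl is higher on the left and lower on the right.

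The libraries after 24 h of 2-HG were then compared with the 2-HG(-) libraries. Pparg, Plin2 and Dgat2 rose, by 2.39, 1.25 and 2.31 times in mean RPM, and Cebpd, Fabp4 and Lpl fell, to means 2.01, 2.43 and 3.21 times lower. Cebpb and Dgat1 did not pass the threshold, and Cebpa and Cd36 did not reach the level set for the test. Transcripts of Plin2, Dgat2 and Pparg were thus higher in the same libraries in which those of Lpl and Fabp4 were lower. The Plin2 call was lost in 5 of 14 alternative fits and the Pparg call in 1 of 13. Proteins were not measured in these libraries. Of the 8 tested members, 6 were called, 3 in each direction, beside 32.8% of 10384 genes (16.1% higher and 16.7% lower). Their median log2 fold change was 0.13 and that of all genes tested -0.021.

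Pparg was at 2.23, 0.936 and 1.26 RPM in 2-HG(-) and at 3.04, 3.97 and 3.59 RPM in 2-HG(+), from 14 to 41 and from 46 to 66 reads a library. All treated libraries exceeded all untreated ones. The means were 1.48 ± 0.675 and 3.53 ± 0.466 RPM (SD, n = 3). The difference came to 0.90 on the log2 scale (SE 0.20, adjusted p = 0.00799). Without variance shared between genes the call was lost (adjusted p = 0.0701, per-gene linear model fitted in limma). Cebpd was at 9.86, 10.2 and 11.2 RPM in 2-HG(-) and at 5.02, 5.17 and 5.36 RPM in 2-HG(+). These groups were narrow and apart, and the log2 fold change was -0.88 (SE 0.13, adjusted p = 0.000773).

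Cebpb was at 125, 139 and 169 RPM in 2-HG(-) and at 132, 138 and 164 RPM in 2-HG(+). The groups covered nearly the same range, and the log2 fold change of 0.01 had a 95% interval of -0.29 to 0.31 (adjusted p = 0.959). Cebpa had 0 reads in all 6 libraries, where 3 reads over a group would be 0.06 to 0.0637 RPM.

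Lpl was at 3.16, 2.21 and 2.4 RPM in 2-HG(-) and at 1.06, 0.842 and 0.523 RPM in 2-HG(+), 131 and 38 reads in all. Each treated library was below each untreated library. The log2 fold change was -0.99 (SE 0.18, adjusted p = 0.0023) on the log2(RPM + 1) scale, which understates the change of a gene this low, and -1.66 when the recovered reads were fitted with edgeR (adjusted p = 0.00284). Fabp4 was at 8.82, 5.55 and 6 RPM in 2-HG(-) and at 2.51, 3.25 and 2.61 RPM in 2-HG(+). The groups were apart, although 1 untreated library stood above the other 2, and the log2 fold change was -1.02 (SE 0.18, adjusted p = 0.00242). Cd36 had 6 reads in 2-HG(-) and 5 in 2-HG(+).

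Dgat2 was at 4.46, 4.01 and 3.96 RPM in 2-HG(-) and at 11, 8.6 and 9.15 RPM in 2-HG(+). Its log2 fold change of 1.04 (SE 0.14, adjusted p = 0.000576) was greater in size than that of 94.5% of the genes tested. Dgat1 was at 30.6, 24.5 and 30.9 RPM in 2-HG(-) and at 33.5, 33 and 35.7 RPM in 2-HG(+). Its treated libraries were all higher, but the log2 fold change of 0.25 (95% interval -0.03 to 0.52) did not pass (adjusted p = 0.155). Plin2 was at 177, 179 and 198 RPM in 2-HG(-) and at 224, 240 and 230 RPM in 2-HG(+). The treated libraries were all higher, with a log2 fold change of 0.32 (SE 0.09, adjusted p = 0.0223). The Plin2 call was lost when 2-HG(-) replicate 1, 2-HG(-) replicate 2, 2-HG(+) replicate 2 or 2-HG(+) replicate 3 was left out, with adjusted p of 0.07, 0.0517, 0.0972 and 0.0545, while the log2 fold change stayed between 0.29 and 0.37 over all 6 such fits. Groups did not overlap for 7 of the 8 tested members, Cebpb being the exception, and for 46.3% of all genes tested.

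Whether the same gene answered differently in the 2 experiments was tested as the change in 2MUT minus the change with 2-HG, over all 12 libraries and the 9612 genes tested in both. The difference was called for 4 of 7 members, beside 39.4% of all genes. Lpl differed most among them, rising in 2MUT and falling with 2-HG, with a difference of 1.79 (95% interval 1.3 to 2.27, adjusted p = 3.82e-05) on the log2 scale. Fabp4 fell with 2-HG and was lower by less in 2MUT, where it was not called, with a difference of 0.75 (95% interval 0.26 to 1.24, adjusted p = 0.0189). Plin2 rose with 2-HG and was not called in 2MUT, with a difference of -0.41 (95% interval -0.66 to -0.16, adjusted p = 0.012).

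Cebpb rose in 2MUT and was not called with 2-HG. Its difference of 0.47 (95% interval 0.09 to 0.85) lay at the threshold, with an adjusted p of 0.0498, and was no longer called in 13 of 21 alternatives, where the adjusted p ranged from 0.0243 to 0.131 over all 21. Pparg was called with 2-HG and not in 2MUT, but its difference of -0.75 (95% interval -1.6 to 0.11) was not called (adjusted p = 0.154). Without Control replicate 2, the lowest Pparg library of that group, the difference was -1.08 and passed (adjusted p = 0.0212), and without Control replicate 3, the highest, it was -0.49 (adjusted p = 0.32). Dgat2 rose in both experiments, with a difference of -0.21 (95% interval -0.62 to 0.2, adjusted p = 0.417), and Dgat1 was called in neither, with a difference of -0.09 (95% interval -0.47 to 0.3, adjusted p = 0.731). Cebpd was not in this test because of its level in the first experiment.

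**Figure D2:**
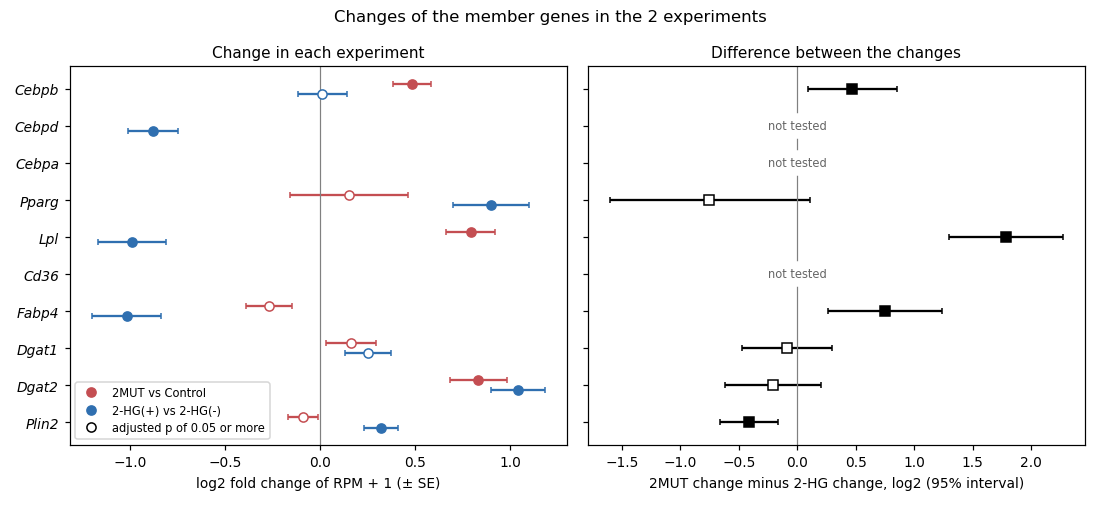
Left, log2 fold changes of RPM + 1 ± SE for the tested genes in 2MUT against Control (red) and 2-HG(+) against 2-HG(-) (blue), filled where the limma adjusted p is under 0.05 (n = 3 libraries a group); right, the difference between both changes with its 95% interval, filled by the same rule. Lpl lies at 0.79 in 2MUT and -0.99 with 2-HG, while Dgat2 lies at 0.83 and 1.04.

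The levels at which these changes took place were unlike in the 2 tables. Lpl averaged 38.7 RPM in Control but 2.59 RPM in 2-HG(-), Fabp4 57.5 against 6.79 RPM, Cebpb 416 against 144 RPM and Plin2 451 against 185 RPM, whereas Cebpd averaged 0.38 against 10.4 RPM. For Lpl, Fabp4, Cebpb, Dgat2 and Plin2, every library of the first experiment was above every library of the second, and for Cebpd below. Dgat1 was at 34.8 to 48.2 RPM in the first experiment and at 24.5 to 35.7 RPM in the second, with every Control library above every 2-HG(-) library. The values of Pparg mixed between the experiments, all of them between 0.936 and 3.97 RPM. In order of their means the Pparg groups were 2-HG(-), Control, 2MUT and 2-HG(+), and each overlapped its neighbours in that order. The control cells are described as carrying the mock vector, after puromycin selection, in the first experiment and as DMSO-treated in the second. The depth and the entries listed differ too. Which of these moved with the levels cannot be told apart.

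The wider pathway was described with lists of genes, by counts only, to be read beside the shares over all genes of 16.5% higher and 17.3% lower in 2MUT and 16.1% higher and 16.7% lower with 2-HG. Of 15 mature adipocyte markers, 2 were high enough to test in 2MUT and Control and 1 in the 2-HG libraries. Adipoq, the adipokine adiponectin, had reads in only 1 library (0.142 RPM, in Control), and Plin1, the droplet coat of mature fat cells, was listed at 0 in all 2-HG libraries and at most at 0.285 RPM in the others. Retn, the adipokine resistin, named here after its values were seen, had 0 reads in Control and 12 in 2MUT, at 0.309, 0.293 and 1.1 RPM, and 1 read in each 2-HG group. Lipe, hormone-sensitive lipase, rose in 2MUT from 15.2, 20.4 and 20.9 RPM to 33.2, 27.2 and 33.2 RPM (log2 fold change 0.71, adjusted p = 0.00668) and was at 10 to 14.8 RPM in all 2-HG libraries (0.03, adjusted p = 0.92). The summed level of the list was 18.6 to 26.2 RPM in Control, 31.5 to 38.5 RPM in 2MUT, 10.6 to 16.2 RPM in 2-HG(-) and 12.3 to 15.5 RPM in 2-HG(+). Lipe made up most of it, with means of 18.8 RPM in Control and 31.2 RPM in 2MUT, while Plin4, the other marker tested in 2MUT, was at 3.78 and 3.33 RPM (adjusted p = 0.648).

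Of 13 tested factors that promote adipogenesis, 2 rose and 1 fell in 2MUT, and of 10 tested with 2-HG, 1 rose and 3 fell. Klf4, which acts before Cebpb in the cascade, rose in both, from 7.84, 10.3 and 8.2 RPM to 22.1, 25.6 and 20.5 RPM in 2MUT (log2 fold change 1.28, adjusted p = 0.000233) and from 6.75, 7.29 and 8.65 RPM to 12.2, 11.8 and 16.5 RPM with 2-HG (0.75, adjusted p = 0.00651). Klf15, which promotes Pparg expression, fell in 2MUT by 0.77 on the log2 scale (adjusted p = 0.0232), and Stat5a, a further activator of the cascade, fell with 2-HG by 0.84 (adjusted p = 0.034). Klf15 was not tested with 2-HG, and Stat5a was not called in 2MUT (-0.45, adjusted p = 0.225).

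Of the factors that restrain adipogenesis, 3 of 12 tested rose and 4 fell in 2MUT, and 3 of 13 rose and 4 fell with 2-HG. Ddit3 encodes CHOP, a stress-induced factor that pairs with C/EBP proteins and blocks their binding. It was at 182, 96.4 and 147 RPM in Control and at 56.2, 51.1 and 62.7 RPM in 2MUT. With 2-HG it went the other way, from 39.4, 56.4 and 36.9 RPM to 176, 168 and 183 RPM. The log2 fold changes were -1.26 (adjusted p = 0.000549) and 1.99 (adjusted p = 1.65e-05), and their difference of -3.25 was called (adjusted p = 1.17e-06). Trib3, a stress-induced pseudokinase, rose with 2-HG from 2.29, 0.936 and 1.38 RPM to 14.1, 18.6 and 16.3 RPM (log2 fold change 2.80, adjusted p = 1.28e-05), and was not called in 2MUT (0.53, adjusted p = 0.167). Klf2, a repressor of Pparg, rose in 2MUT (1.13, adjusted p = 0.000233) and was not called with 2-HG (0.13, adjusted p = 0.553). Foxo1, which also represses Pparg, fell with 2-HG (-0.59, adjusted p = 0.0117) and rose in 2MUT (0.65, adjusted p = 0.0138). Dlk1, the preadipocyte inhibitor, was listed at 0 in all 12 libraries.

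Around Lpl, the list of fatty acid uptake, activation and binding had 4 of 13 tested genes higher and 2 lower in 2MUT, and 3 of 13 higher and 3 lower with 2-HG. Angptl4, a secreted inhibitor of lipoprotein lipase and a known PPAR target, rose in both. It was at 30.3, 41.2 and 35 RPM in Control and at 151, 158 and 136 RPM in 2MUT, a log2 fold change of 2.04 (adjusted p = 1.45e-06). In 2-HG(-) it was at 13.9, 18.8 and 16.3 RPM and in 2-HG(+) at 60, 77.9 and 83.4 RPM, a log2 fold change of 2.10 (adjusted p = 1.39e-05). The difference of these changes was -0.06 with a 95% interval of -0.52 to 0.4 (adjusted p = 0.844). Angptl4 was thus higher both where Lpl was higher, in 2MUT, and where Lpl was lower, with 2-HG. Cav1, the caveolar coat protein, fell in both, by 0.82 (adjusted p = 7.09e-05) and 0.95 (adjusted p = 0.000104) on the log2 scale. Vldlr, a lipoprotein receptor named here after its values were seen, rose in both, with log2 fold changes of 0.66 (adjusted p = 0.00359) and 1.81 (adjusted p = 7.37e-05).

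**Figure D3:**
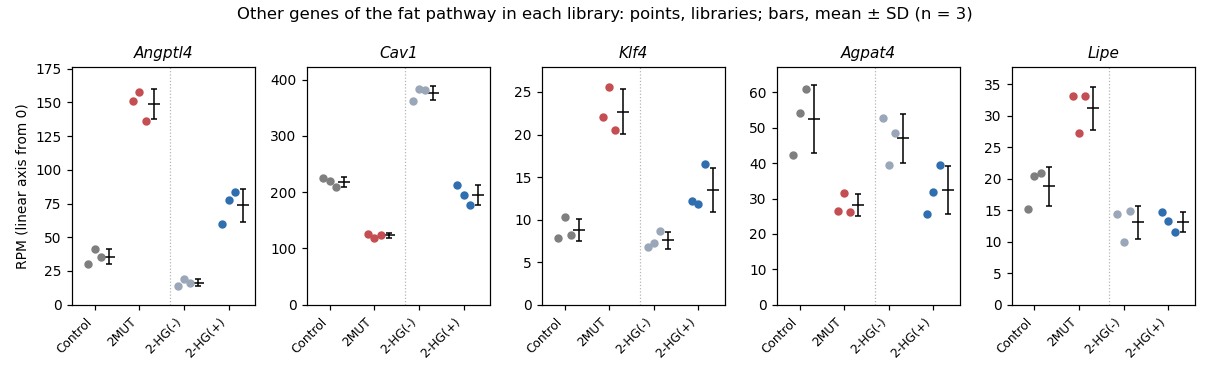
RPM of 5 other genes of the pathway in each library, on linear axes from 0; points are libraries, bars the group mean ± SD (n = 3), and the dotted line separates the 2 experiments. Angptl4 and Klf4 are higher and Cav1 and Agpat4 lower in the mutant or treated group of both experiments, and Lipe is higher in 2MUT at 27.2 to 33.2 RPM.

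Before the step of DGAT1 and DGAT2, 3 of 11 tested genes of triglyceride synthesis rose and 2 fell in 2MUT, and 2 of 11 rose and 1 fell with 2-HG. Agpat9, now named Gpat3, which adds the first fatty acid to glycerol phosphate, rose with 2-HG from 12.9, 11.2 and 12.5 RPM to 32.1, 35.2 and 35.1 RPM (log2 fold change 1.42, adjusted p = 2.93e-05), and was not called in 2MUT (0.55, adjusted p = 0.089). Lpin2, a phosphatidate phosphatase, rose in 2MUT (0.72, adjusted p = 0.000657) and was not called with 2-HG (0.10, adjusted p = 0.519). Agpat4, an acyltransferase, fell in both, by 0.87 (adjusted p = 0.00154) and 0.54 (adjusted p = 0.0345). Among droplet proteins and lipolysis genes, 2 of 8 tested were called lower in 2MUT and 2 of 7 with 2-HG, and none was called higher. Hilpda, a droplet protein induced by hypoxia and named here after its values were seen, had higher values in all libraries of both 2MUT (means 93.2 and 114 RPM, adjusted p = 0.058) and 2-HG(+) (means 15.3 and 24.9 RPM, adjusted p = 0.0888), short of the threshold. The droplet coat Plin3 fell in 2MUT by 0.52 (adjusted p = 0.00202) and with 2-HG by 0.33 (adjusted p = 0.0198). Cideb, a droplet-associated protein, fell in 2MUT by 1.27 (adjusted p = 0.00423) and with 2-HG by 0.57 (adjusted p = 0.0303). Of 12 tested genes of fatty acid oxidation, 3 rose and 1 fell in 2MUT, and 1 rose and 2 fell with 2-HG. Cpt1a, the carnitine transferase of mitochondrial entry, rose in 2MUT (0.95, adjusted p = 4.11e-05) and was not called with 2-HG (0.16, adjusted p = 0.25). Hadh, which acts on hydroxyacyl-CoA, fell in 2MUT (-0.49, adjusted p = 0.0173) and was not called with 2-HG (0.13, adjusted p = 0.554). The acyl-CoA dehydrogenase Acadl rose with 2-HG (0.32, adjusted p = 0.0336) and Acadm fell (-0.85, adjusted p = 0.000761), while in 2MUT they were at 0.45 (adjusted p = 0.071) and -0.29 (adjusted p = 0.103).

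**Figure D4:**
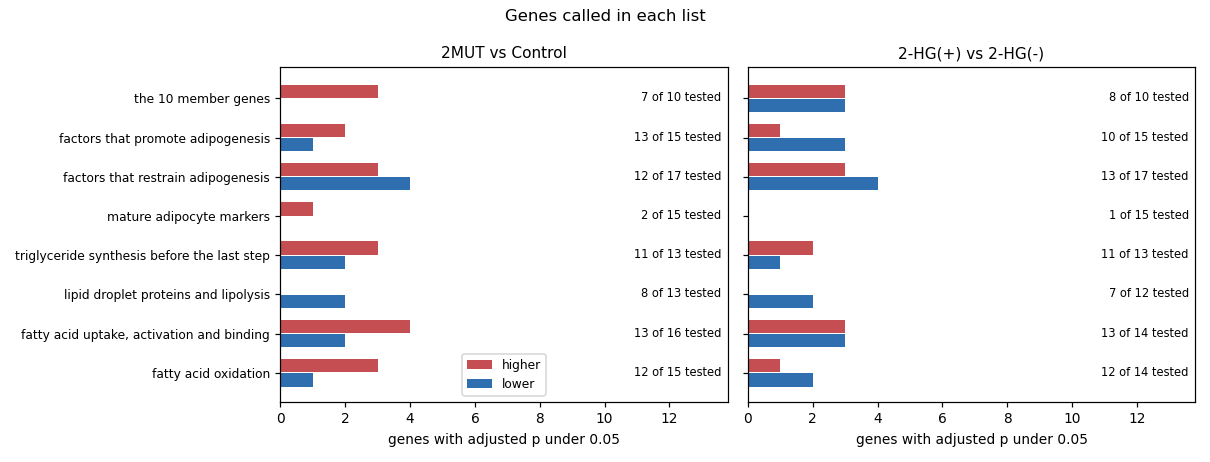
Number of genes with a limma adjusted p under 0.05 that were higher (red) or lower (blue) in each list, in both comparisons, with the number tested of the number listed at the right of each bar pair. The 10 genes have 3 higher and 0 lower calls in 2MUT and 3 of each with 2-HG, while mature adipocyte markers have 1 call in 2MUT and 0 with 2-HG.

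The pattern of Pparg over the 12 libraries, after the mean of each table was subtracted, was most like that of Mtm1 (Pearson r = 0.92), Drg1 (0.91) and Rell1 (0.91) among 9612 genes. That of Plin2 was most like Sf3a2 (0.98), Atic (0.97) and Reep6 (0.96). These are the highest of many values over few libraries that share their depth and group, and are given as a description. In the 2-HG experiment the log2 fold changes of these genes were 1.00, 0.23 and 0.57 for the first set and 0.44, 0.77 and 1.37 for the second, against -0.15 to 0.14 in 2MUT. No other member gene was among them.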

How the data were processed

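RNA was measured in 12 libraries of MEF cells, 3 in each of 4 groups taken from the sample labels. The authors prepared Ion AmpliSeq libraries from 100 ng of total RNA, aligned the reads with TMAP to the AmpliSeq mouse transcriptome reference, and counted them with the AmpliSeqRNA plug-in. The authors' deposited RPM values, reads on a gene scaled to a library total of 1000000, fill 1 table for each experiment. A genome build is not given in the sources used here. The study's methods call the experiments triplicate, and neither they nor the labels say whether replicates were separate cultures, so p-values measure only the spread between these libraries, which may be technical. The 10 genes, the gene lists and the tests were chosen with earlier results of these data known.

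Each table was fitted alone using limma 3.58.1 (R 4.3.3). Input was log2(RPM + 1), the variance followed a trend in the mean, genes had to average 1 RPM or more over the 6 libraries, and p-values were adjusted by Benjamini-Hochberg over all genes tested. The difference between experiments was the contrast of changes over the 12 libraries. Its 9612 genes include names that a spreadsheet had turned into dates. Leaving these out was added as an alternative after the results were seen. 95% intervals use limma's moderated degrees of freedom. Folds of means are ratios of mean RPM. All 10 genes are named in any case. From each other list, the genes with the largest rise and fall past the threshold were named in each comparison, among those averaging 5 RPM or more in their higher group, without overlap between groups, with Angptl4 and Dlk1 in any case. Values of a named gene in the other comparison and defining markers are given beside them. For likeness, the 3 genes with the highest r were taken.

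RPM values came out as whole reads for 99.85% to 100% of values in a library, within 0.0239 to 0.031 reads, and these reads were tested with edgeR 4.0.16, which called 3764 and 3546 genes, and DESeq2 1.42.0 as alternatives. Replicate libraries differed by more than counting noise (chi-square per degree of freedom 5.88 to 33.1). The tests were run on simulated reads drawn independently with the same spread for every gene. That setting is simpler than these libraries, so it does not show how the tests perform on them. Counting limits of 3 reads cover counting error only. Coordinates are from GENCODE M21 on GRCm38 and promoter windows from RefSeq. Further software was pandas 2.3.3, scipy 1.17.1 and, for the plots, matplotlib 3.10.9.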

Additional observations from a re-analysis of the deposited data

Results flagged for a closer look

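For 4 of the 7 member genes tested, beside 39.4% of 9612 genes, the change in 2MUT and the change with 2-HG differed in the test of the difference itself (limma contrast over 12 libraries). As the 2MUT change minus the 2-HG change on the log2 scale, Lpl differed by 1.79, with all 3 libraries higher in 2MUT and all 3 lower with 2-HG. Fabp4 differed by 0.75, with lower values in all 3 libraries of both 2MUT and 2-HG(+). Plin2 differed by -0.41, with all 3 libraries lower in 2MUT and all 3 higher with 2-HG. Cebpb differed by 0.47, higher in all 3 libraries of 2MUT and with overlapping groups in the 2-HG experiment, and its adjusted p of 0.0498 was at the threshold. The 2 experiments differ in duration, with stable expression after puromycin selection in one and 24 h of exposure in the other. They also differ in vector, vehicle, listed entries, depth and base level. None of these can be told apart from the agents.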

How the results depend on the processing

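Of 22 log2 fold changes of the 10 genes, 15 kept their direction and their side of the threshold under every alternative run, and 321 of 347 alternative values did. A per-gene linear model without limma's shared variance called 2244 genes in 2MUT and 2237 with 2-HG, in place of 3741 and 3405. A filter at 10 RPM left 3 of the 10 member genes tested with 2-HG, of which 1 was called. It left 3 of them tested for the difference, of which 2 were called, because fewer genes pass it. With libraries left out in turn, Pparg in 2MUT ranged from -0.18 to 0.41, Cebpb with 2-HG from -0.09 to 0.13 and the difference of Dgat1 from -0.19 to 0.02, none of them called in any of these fits. Other values below the threshold also moved, Dgat1 in 2MUT from 0.16 to 0.06 without Control replicate 1, Dgat1 with 2-HG from 0.25 to 0.14 without 2-HG(-) replicate 2, Plin2 in 2MUT from -0.09 to -0.05 without Control replicate 3 and the difference of Dgat2 from -0.21 to -0.11 without 2-HG(+) replicate 1. Leaving out date names gave 3780 genes for the difference in place of 3786 and 4 member genes in both.

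Replicate numbers did not pair the libraries, and not every library correlated best with its own number. Same-numbered libraries correlated in their deviations from the group means by 0.03 to 0.07 in the first experiment and by -0.46 to 0.06 in the second. Differently numbered libraries of the second experiment ranged from -0.41 to 0.48, the highest between 2-HG(-) replicate 2 and 2-HG(+) replicate 1. What such libraries share was not tested. With the replicate block, 3898 and 2503 genes and 3 and 5 of the 10 genes were called. Plin2 with 2-HG was the call lost (0.32, adjusted p = 0.0817), and the difference was called for 3351 genes and 4 of the 10. With no filter, Cebpd, at 8 and 7 reads in the groups of the first experiment, had a called difference of 0.83 (adjusted p = 0.0093). At that level the 1 added before the logarithm keeps any change in 2MUT small (-0.05 here). The difference therefore largely repeats the change of Cebpd with 2-HG (-0.88), and nothing is read from it. Median-of-ratios scaling moved the median log2 fold change of all genes from 0.008 to 0.011 and from -0.021 to -0.004. Cebpa and Cd36 in both experiments and Cebpd in the first had at most 8 reads in a group, so small differences in them were not detectable with these targets at this depth.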
